A study of Mus musculus with 10 samples.

Results

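Platelet RNA from mice was examined for 9 genes of PI3-kinase and AKT signalling: Pik3cb, Pik3cg, Pik3r5, Pik3r1, Akt1, Akt2, Pdpk1, Inpp5d and Gsk3b. They were taken by symbol from 53819 gene symbols counted in every library, and all 9 had a row. RNA sequencing libraries of polyadenylated RNA came from platelets of mice with the label P7, taken to mean postnatal day 7 (libraries A, B, C, E and I), and of adult mice (libraries A, B, C, G and H), 5 libraries at each age. No treatment, genotype, strain or sex is given for either group in the sources used here, nor the age of the adults in weeks. Whether each library stands for its own animal or for a pool is not stated, so a p-value here measures only the spread between samples, which may be technical.

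Class I PI3-kinases phosphorylate a membrane lipid to make PIP3, which recruits the kinases PDK1 and AKT to the plasma membrane, where PDK1 phosphorylates and activates AKT. Each enzyme pairs a catalytic subunit (p110 alpha, beta, gamma or delta) with a regulatory subunit, and lipid phosphatases such as SHIP1 remove PIP3 again. In platelets, p110 beta is known for its part in signalling from integrins and in stable thrombus formation, p110 gamma for signalling downstream of G protein-coupled receptors such as that for ADP, and GSK3 beta as an AKT substrate that AKT phosphorylation inhibits.

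The promoter sequences of 3 genes are shown because the results turn on them: Pik3cb and Gsk3b passed the test for a lower level at P7, and Pik3cg had the widest difference of the 9 in the other direction. Each is the stretch of 250 bases that ends just before the gene's start, 5′ to 3′ on the gene's own strand, from RefSeq on build GRCm38.p6, in which all 9 genes had an entry. Capitals mark matches on either strand to a GC box (GGGCGG) or an ETS core (CGGAAG). Pik3cb lies at chr9:99140212-99140461 on the minus strand, Pik3cg at chr12:32208660-32208909 on the minus strand and Gsk3b at chr16:38088751-38089000 on the plus strand.
Pik3cb: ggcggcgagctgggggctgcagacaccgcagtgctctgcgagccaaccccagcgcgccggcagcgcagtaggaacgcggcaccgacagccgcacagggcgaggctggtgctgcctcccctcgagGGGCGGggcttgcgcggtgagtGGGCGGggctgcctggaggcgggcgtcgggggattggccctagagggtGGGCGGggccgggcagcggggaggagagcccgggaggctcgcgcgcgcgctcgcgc
Pik3cg: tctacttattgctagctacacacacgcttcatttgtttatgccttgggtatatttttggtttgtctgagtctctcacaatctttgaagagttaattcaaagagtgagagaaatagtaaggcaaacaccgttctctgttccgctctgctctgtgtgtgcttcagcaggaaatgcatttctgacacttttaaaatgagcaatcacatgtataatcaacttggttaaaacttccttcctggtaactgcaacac
Gsk3b: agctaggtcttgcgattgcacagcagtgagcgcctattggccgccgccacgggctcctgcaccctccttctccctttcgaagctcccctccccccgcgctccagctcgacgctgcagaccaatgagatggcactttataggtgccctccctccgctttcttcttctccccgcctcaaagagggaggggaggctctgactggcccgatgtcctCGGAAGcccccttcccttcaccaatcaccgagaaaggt
The Pik3cb stretch had a GC content of 78.0% with 32 CpG dinucleotides and 3 GC boxes, and the Gsk3b stretch 62.0% with 15 CpG and 1 ETS core. The Pik3cg stretch had a GC content of 38.8% with 3 CpG and held none of the motifs searched, and RefSeq lists a further start for this gene. Over 32851 mouse promoter stretches of this length, the median GC content was 52.4% with 6 CpG, 32.7% held a GC box and 13.6% an ETS core. A GATA motif (AGATAA, in 9.99% of all) and a RUNX motif (TGTGGT, in 14.05%) were found in none of the 3. No match shown overlaps another. The matches describe these letters and were not tested for binding.

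Among the 9 genes, Gsk3b and Pik3cb were lower at P7 and none was higher. Levels are CPM, the count of a gene scaled to a fixed library total with TMM factors, and fold changes are P7 over adult, with SE as the error of a log2 fold change. Calls require an adjusted p under 0.05 from the quasi-likelihood test of edgeR, with Benjamini-Hochberg adjustment over 8198 genes. Of the 8 members that passed the filter on low counts, 2 were called, both lower, which is 25% beside 27.7% of all genes tested. Over all genes, 13.8% were called higher and 13.9% lower, so the members' share was close to the background. The median log2 fold change of the 8 was -0.20, with 2 values above 0 and 6 below, against a median of 0.05 over all genes tested. Libraries of the ages did not overlap for 0 members in the higher direction and 1 in the lower, beside 10.1% and 9.76% of all genes. Pik3r5 did not pass the filter. In bulk samples, fewer cells of a type and less RNA per cell cannot be told apart.

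**Figure D1:**
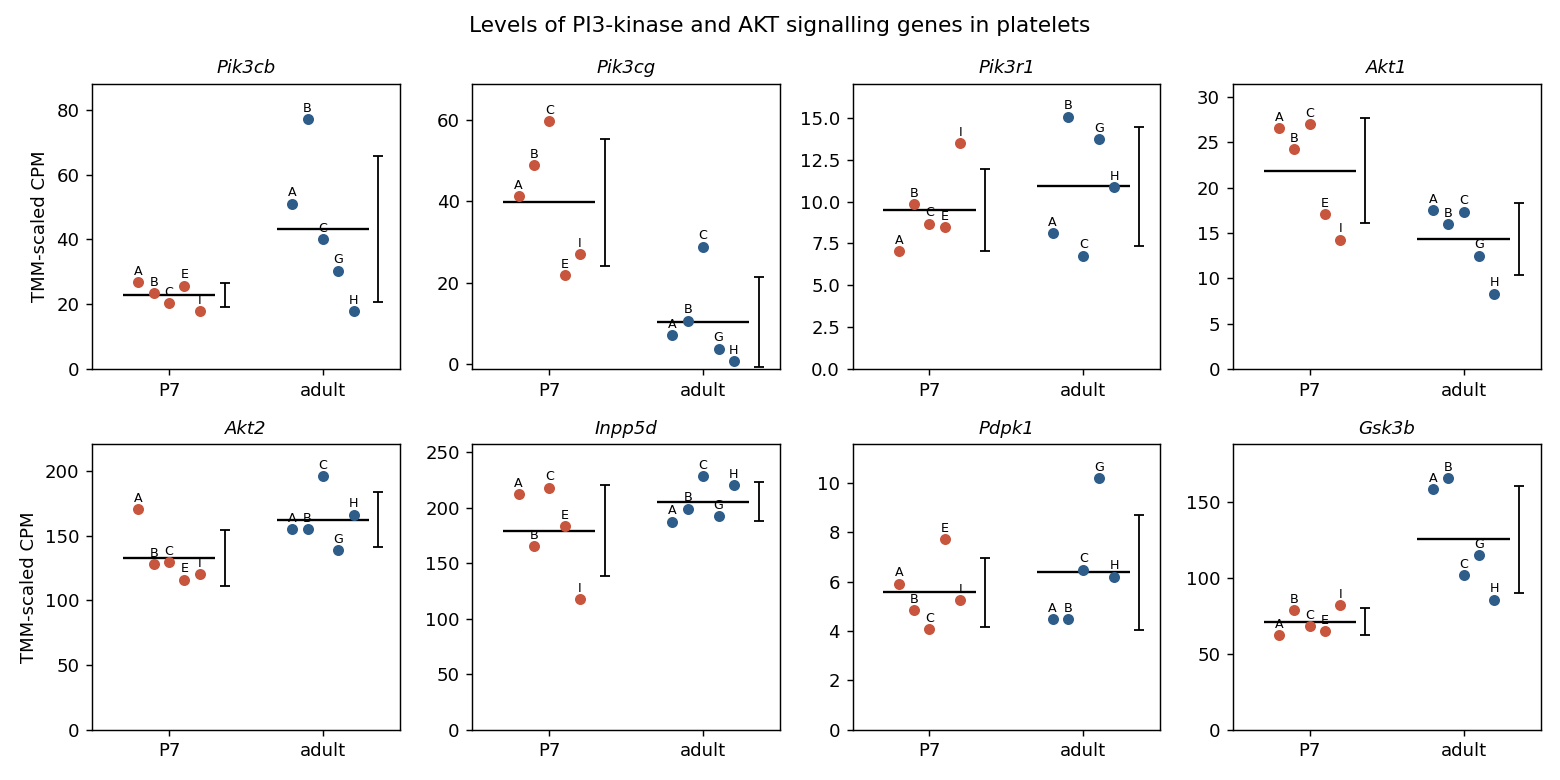
Levels in TMM-scaled CPM (linear axis that includes 0, with its own scale per panel) of the 8 members that passed the filter, with a lettered point per library, a line at the mean of each age and a bar of ±1 SD beside it. Gsk3b is the gene whose P7 libraries (62.2 to 82.1 CPM) all lie below its adult libraries (85.6 to 166 CPM), while for Pik3cg adult library C lies among the P7 libraries.

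The catalytic subunit p110 beta is encoded by Pik3cb. Its levels were 26.8, 23.5, 20.2, 25.7 and 17.8 CPM in P7 libraries A, B, C, E and I, and 51.0, 77.1, 40.1, 30.4 and 17.9 CPM in adult libraries A, B, C, G and H. Adult library B was the highest and adult library H lay within the P7 range, so the groups overlapped, and the adult libraries spread far more widely than those of P7. Pik3cb had a mean of 22.8 ± 3.78 CPM in P7 libraries against 43.3 ± 22.5 CPM in adult libraries (SD, n = 5 per age). It fell by 0.93 ± 0.30 log2 units (SE), with an adjusted p of 0.0331 in edgeR's quasi-likelihood test. The call was lost in 11 of 22 alternative settings, among them library size only (-0.87, adjusted p = 0.0598), limma-voom (-0.79, adjusted p = 0.0750) and removal of the GC trend (-0.86, adjusted p = 0.0546). Without adult library B the log2 fold change was -0.63 (edgeR adjusted p = 0.104), and without adult library H it was -1.13 (edgeR adjusted p = 0.00430). The call was also lost without P7 library B, C, E or I or without adult library A, with log2 fold changes of -0.94, -0.89, -0.996, -0.86 and -0.87 (edgeR adjusted p = 0.0595, 0.0746, 0.0529, 0.0689 and 0.0673).

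Pik3cg encodes p110 gamma. Its levels were 41.2, 48.8, 59.5, 21.8 and 26.9 CPM in P7 libraries A, B, C, E and I, against 7.16, 10.7, 28.8, 3.77 and 0.746 CPM in adult libraries A, B, C, G and H. Adult library C stood within the P7 range and the other 4 adult libraries lay below every P7 library, down to 13 counts in adult library H. The means were 39.6 ± 15.5 and 10.2 ± 11.0 CPM (SD, n = 5 each), a log2 fold change of 1.95 ± 0.76 (SE) that did not pass the test (edgeR adjusted p = 0.0872). The gene was called in 5 of the 22 alternatives. These included DESeq2 (log2 fold change 1.92, adjusted p = 0.0390) and limma-voom (2.63, adjusted p = 0.00710), and without adult library C edgeR gave 2.81 ± 0.62 (adjusted p = 0.00926). Pik3cg is also known from leukocytes, so leukocyte markers are given beside it. The 18 neutrophil markers summed to 4.06 to 8.63 CPM at P7 and 1.62 to 2.05 CPM in adults, with Ly6g and Cxcr2 at 0 in every library, and the 13 B cell markers to 30.5 to 51.3 and 19.6 to 23.5 CPM. Of these, 1 of 2 neutrophil and 2 of 6 B cell markers tested were called higher at P7, beside 13.8% of all genes. Means were under 1 CPM for 17 of the 18 neutrophil and 10 of the 13 B cell markers. Cd37 alone made up 65.6% of the B cell sum. Of the other leukocyte lists, the 14 monocyte markers summed to 2797 to 5925 against 4215 to 9800 CPM. The 19 T and NK cell markers had sums of 11.5 to 18.6 against 15.8 to 24.9 CPM. Lyz2 made up 66.5% of the monocyte sum and F13a1 came next, with mean levels of 1135 (P7) and 2166 CPM (adult). A mean under 1 CPM was found for 10 of the 14. The monocyte sum thus rested on few genes, and whether their RNA came from monocytes was not tested. Of the monocyte markers 1 of 5 tested was called higher and 1 lower, and of the T and NK cell markers 1 of 6 was called lower. Over all genes 13.9% were called lower. With the leukocyte marker level as a covariate the log2 fold change of Pik3cg was 1.27 ± 0.75 (edgeR adjusted p = 0.321). That level pooled all these lists, whose sums differed in both directions, and it varied with age. The part of such cells was not tested.

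The balance of the catalytic subunit transcripts differed between the ages. The members were chosen with earlier results of these data known, so the tests of the 8 ratios are not independent of those results. No marker level was used as a covariate in them. The count ratio of Pik3cb to Pik3cg was 0.651, 0.481, 0.340, 1.18 and 0.660 in P7 libraries A, B, C, E and I, and 7.11, 7.22, 1.39, 8.02 and 23.1 in adult libraries A, B, C, G and H. Every P7 library lay below every adult library, with P7 library E and adult library C nearest each other. On the log2 scale the ratio averaged -0.72 ± 0.66 for P7 and 2.74 ± 1.45 for adult libraries (SD, n = 5 per age), a difference of -3.46, or 10.99-fold. Over all 252 splits, the exact permutation test (two-sided) gave p = 0.0079, the smallest it can give, and 0.0317 after Benjamini-Hochberg adjustment over the 8 ratios computed. With 1 library left out the difference ran from -4.02 to -3.01. Its adjusted p was 0.0635 in 9 of 10 cases, the exception being adult library A (0.0317). The smallest p this test can give with 9 libraries is also 0.0079. The difference kept its sign in each case. The ratio of Pik3cb to Pik3ca, which encodes the widely expressed p110 alpha, differed by 0.03 on the log2 scale (exact permutation p = 0.90, adjusted 0.90).

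As shares of the 4 class I catalytic subunits in CPM per kb of exon, Pik3cg made up 34.0% to 63.5% at P7 (median 48.8%) and 2.29% to 28% in adults (median 8.47%). Pik3cb took 25.3% to 46.9% at P7 and 45.7% to 74.1% in adults, with P7 library E overlapping adult library C. Pik3ca took 8.61% to 16.4% and 16.4% to 32.1%, and Pik3cd, for the leukocyte subunit p110 delta, stayed at or under 3.85% and 5.62%. At P7, Pik3cg took the highest share in 4 of 5 libraries, and in adults Pik3cb did so in 5 of 5. Pik3ca had a mean of 10.2 ± 1.57 CPM in P7 libraries against 18.5 ± 6.24 CPM in adult libraries (SD, n = 5 per age) and fell by 0.86 ± 0.24 log2 units (edgeR adjusted p = 0.0140), and with the GC trend removed its log2 fold change was -0.57 (edgeR adjusted p = 0.0957).

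**Figure D2:**
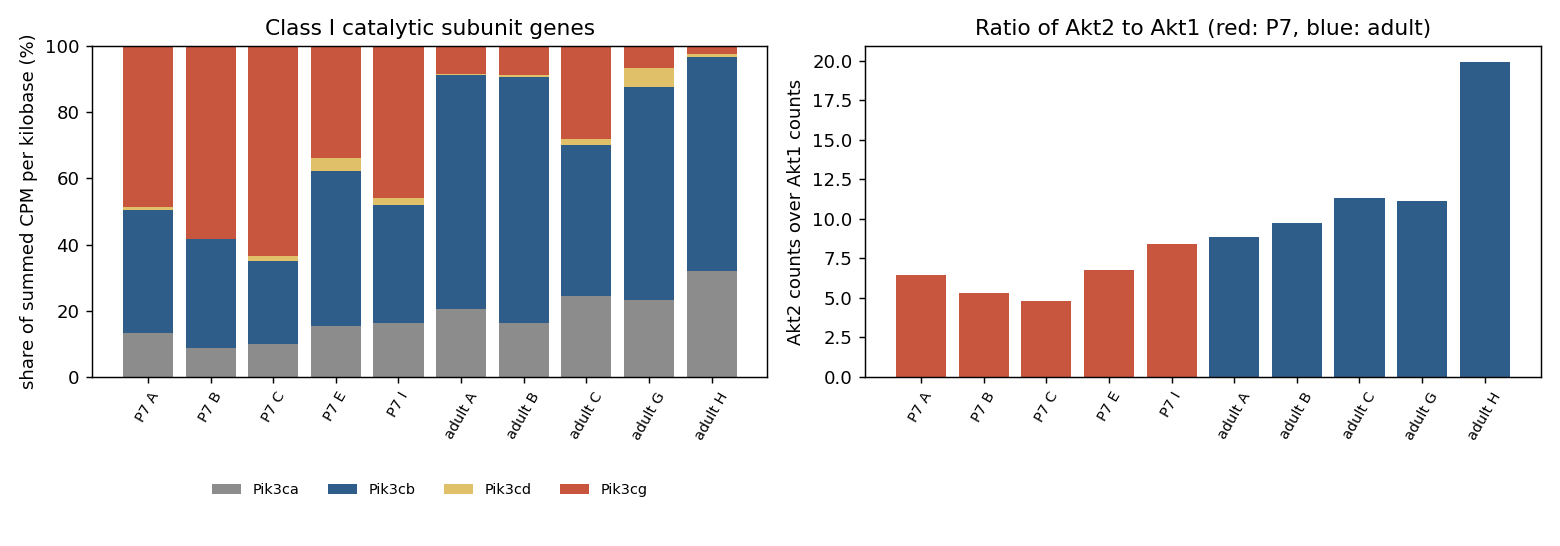
Stacked bars of the share of each class I catalytic subunit gene in their summed CPM per kb of exon (%), and bars of the count ratio of Akt2 to Akt1, in each of the 10 libraries. Pik3cg takes 34.0% to 63.5% of the catalytic sum in the P7 libraries and 2.29% to 28% in the adult ones, and the ratio of Akt2 to Akt1 is 4.79 to 8.41 and 8.83 to 19.9.

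The regulatory subunits did not show a common direction. Pik3r1, which encodes p85 alpha, partner of p110 alpha, beta and delta, measured 7.04, 9.87, 8.68, 8.48 and 13.5 CPM in P7 libraries A, B, C, E and I and 8.11, 15.1, 6.78, 13.8 and 10.8 CPM in adult libraries A, B, C, G and H. The P7 range lay inside the adult range. The means were 9.52 ± 2.45 and 10.9 ± 3.55 CPM (SD, n = 5 each), with a log2 fold change of -0.20 ± 0.25 (SE, edgeR adjusted p = 0.600).

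Pik3r5 encodes p101, a regulatory partner of p110 gamma. It had 9 counts in P7 library A and 6 in P7 library E, 1 in adult library A and 9 in adult library C, and 0 counts in the other 6 libraries. A count of 0 allowed up to 0.120 to 0.172 CPM per library, taken as 3 counts of the total. The sums were 15 counts at P7 and 10 in adults, and with no filter on low counts the adjusted p was 0.909 in edgeR, so that no difference was detectable at this depth. Pik3r6, for the other p110 gamma partner p84, had 18 counts in 3 P7 libraries, 10 of them in P7 library B, and 0 counts in adults. The summed P7 level was 5.46-fold that of 3 counts over the summed adult libraries. This value leaves out the spread between libraries and is no lower bound on the fold change. It did not pass the filter, and with no filter it was called higher (edgeR adjusted p = 0.0413), on counts from 3 of 5 P7 libraries. The log2 count ratio of Pik3r5 to Pik3cg differed by -2.40 (two-sided exact permutation p = 0.095, adjusted 0.190), with overlapping groups and a value set by the pseudocount in the 6 libraries without a count. Both partners were thus near the limit of detection in libraries in which Pik3cg reached up to 1481 counts.

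Pik3r2, for p85 beta, had a mean of 1.20 ± 0.279 CPM in P7 libraries against 0.346 ± 0.269 CPM in adult libraries (SD, n = 5 per age) and rose by 1.80 ± 0.62 log2 units (edgeR adjusted p = 0.0427). Its groups did not overlap, but the call was lost in 13 of 21 alternatives, including those without any 1 of the P7 libraries or without adult library A, G or H, where log2 fold changes ran from 1.64 to 1.88.

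The AKT kinase genes Akt1 and Akt2 did not pass the test, and their log2 fold changes had opposite signs. Akt1 measured 26.6, 24.3, 27.1, 17.1 and 14.3 CPM in P7 libraries A, B, C, E and I and 17.6, 15.9, 17.4, 12.5 and 8.32 CPM in adult libraries A, B, C, G and H. P7 libraries A, B and C lay above all adult libraries, and E and I lay within the adult range. The means were 21.9 ± 5.80 and 14.3 ± 3.93 CPM (SD, n = 5 each), a log2 fold change of 0.61 ± 0.24 (SE, edgeR adjusted p = 0.0772). Without P7 library I it was 0.72 (edgeR adjusted p = 0.0355), and with the trend over GC content removed it was 0.19 (edgeR adjusted p = 0.629).

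Akt2, which was higher than Akt1 per kb of exon at both ages, measured 171, 128, 130, 116 and 120 CPM in P7 libraries A, B, C, E and I and 155, 155, 196, 139 and 166 CPM in adult libraries A, B, C, G and H. P7 library A stood apart from the other 4 P7 libraries, which lay below every adult library. A pseudogene copy, Akt2-ps, has a row of its own with 1 to 25 counts per library. The means were 133 ± 21.8 and 162 ± 21.3 CPM (SD, n = 5 each), a log2 fold change of -0.29 ± 0.15 (SE, edgeR adjusted p = 0.172). With the trend over GC content removed it was -0.57 (edgeR adjusted p = 0.0131).

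The ratio of Akt2 to Akt1 did differ between the ages. It was 6.42, 5.28, 4.79, 6.78 and 8.41 in P7 libraries A, B, C, E and I and 8.83, 9.71, 11.3, 11.1 and 19.9 in adult libraries A, B, C, G and H, so that the groups did not overlap. On the log2 scale it averaged 2.64 ± 0.32 for P7 and 3.54 ± 0.46 for adult libraries (SD, n = 5 per age), a difference of -0.91, or 1.87-fold (two-sided exact permutation p = 0.0079, adjusted 0.0317 over 8 ratios). With 1 library left out the difference ran from -1.02 to -0.71, with an adjusted p of 0.0635 in 9 of 10 cases and 0.0317 without adult library A. Before adjustment the exact permutation p was 0.0079 without P7 library A, E or I or adult library A. It was 0.0159 in the other cases. The smallest p this test can give with 9 libraries is 0.0079, as with all 10.

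Pdpk1, which encodes PDK1, had the lowest level per kb of exon of the 8 members tested. It measured 5.91, 4.86, 4.06, 7.72 and 5.25 CPM in P7 libraries A, B, C, E and I and 4.49, 4.47, 6.48, 10.2 and 6.20 CPM in adult libraries A, B, C, G and H. P7 library C lay below the adult libraries and the other 4 lay among them, with adult library G at the top. The means were 5.56 ± 1.38 and 6.37 ± 2.34 CPM (SD, n = 5 each), with a log2 fold change of -0.19 ± 0.27 (SE, edgeR adjusted p = 0.630) that became 0.02 without adult library G.

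Inpp5d encodes SHIP1, a phosphatase of blood cells that takes the 5-phosphate off PIP3. It measured 212, 165, 218, 184 and 117 CPM in P7 libraries A, B, C, E and I and 187, 199, 228, 192 and 220 CPM in adult libraries A, B, C, G and H. P7 libraries B, E and I lay below all adult libraries, with I the lowest, and A and C lay among the adult libraries. The means were 179 ± 40.7 and 205 ± 17.8 CPM (SD, n = 5 each), a log2 fold change of -0.20 ± 0.17 (SE, edgeR adjusted p = 0.417), and the gene was called in 0 of 22 alternatives.

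Gsk3b, the gene for GSK3 beta, was the member with the smallest adjusted p. Its levels were 62.2, 78.5, 67.9, 64.8 and 82.1 CPM in P7 libraries A, B, C, E and I and 158, 166, 102, 115 and 85.6 CPM in adult libraries A, B, C, G and H. All P7 libraries lay below all adult libraries, with P7 library I and adult library H next to each other. Gsk3b had a mean of 71.1 ± 8.71 CPM in P7 libraries against 125 ± 35.2 CPM in adult libraries (SD, n = 5 per age) and fell by 0.82 ± 0.19 log2 units (SE, edgeR adjusted p = 0.00545). The call was kept in 20 of 22 alternatives, and the log2 fold change ran from -1.06 to -0.60. The 2 exceptions had marker levels of other cells as a covariate. The paralogue Gsk3a had a mean of 2.73 CPM in P7 against 4.14 CPM in adult libraries, with a log2 fold change of -0.60 ± 0.25 (edgeR adjusted p = 0.0919). Its exons overlap an antisense gene over 820 bases in GENCODE M21, so its value is uncertain, and the log2 ratio of Gsk3b to Gsk3a differed by -0.23 (two-sided exact permutation p = 0.254, adjusted 0.290).

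Per kb of exon, Inpp5d and Akt2 were the highest members at both ages, at 23.6 and 18.7 CPM per kb at P7 and 27.0 and 22.8 CPM per kb in adults, and their ranges overlapped each other at each age. At P7 they were followed by Gsk3b (7.23 CPM per kb), Akt1 (5.34), Pik3cg (4.71) and Pik3cb (3.17), then Pik3r1 (0.944), Pdpk1 (0.509) and Pik3r5 (0.0217). Neighbours in this order overlapped except Akt2 with Gsk3b, Pik3cb with Pik3r1, and Pdpk1 with Pik3r5. In adults the order was Gsk3b (12.7 CPM per kb), Pik3cb (6.02), Akt1 (3.50), Pik3cg (1.21), Pik3r1 (1.08), Pdpk1 (0.582) and Pik3r5 (0.0175), and neighbours overlapped except Akt2 with Gsk3b and Pdpk1 with Pik3r5. Pik3cg thus stood above Pik3cb at P7 and below it in adults. The exons of the 9 members overlap no other gene in GENCODE M21.

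The genes whose profile over the 10 libraries was most like that of a called member were found by the root mean square (RMS) difference of centred log2 CPM among 1944 genes of at least 20 CPM. Nearest to Gsk3b was Fundc1, for a mitochondrial outer membrane receptor of mitophagy, with an RMS difference of 0.134 on the log2 scale against a median of 0.553 over the genes. Fundc1 fell by 0.79 ± 0.17 log2 units (edgeR adjusted p = 0.00374). Nearest to Pik3cb was Rnf19b, for a RING-type ubiquitin ligase, at 0.310 against a median of 0.715, and Rnf19b fell by 0.89 ± 0.18 log2 units (edgeR adjusted p = 0.00246). Both genes were picked by profiles that include the difference between the ages, so their falls are not separate findings.

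Around the 9 members, 8 lists of other pathway genes held 121 genes, of which 89 were tested. With edgeR 4 were higher and 16 lower at P7, 22.5% in all beside 27.7% of all genes tested. Their median log2 fold change was -0.11, with 38 values above 0 and 51 below. The share in both directions together was again near the background, but the directions were uneven. Over all genes 13.8% were called higher and 13.9% lower. The ages did not overlap for 3 of the 89 in the higher direction and 11 in the lower, beside 10.1% and 9.76% of all genes.

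Among the 14 other lipid phosphatases tested, 0 were higher and 4 lower. They included Inpp4b and Inpp4a, which take the 4-phosphate off PI(3,4)P2, a product of SHIP1. Inpp4b had a mean of 32.0 ± 5.08 CPM in P7 libraries against 60.4 ± 7.11 CPM in adult libraries (SD, n = 5 per age) and fell by 0.91 ± 0.16 log2 units, and Inpp4a fell by 0.70 ± 0.16 log2 units (edgeR adjusted p = 0.000913 and 0.00523). Of the 9 kinases that make the lipid substrate, Pip4k2a was lower (log2 fold change -0.70 ± 0.21, edgeR adjusted p = 0.0243) and Pip4k2c higher (0.87 ± 0.29, edgeR adjusted p = 0.0373). Leaving out 1 library ended the Pip4k2a call in 4 cases (P7 B or C, adult A or H) and the Pip4k2c call in 6 (P7 A, B or E, adult A, G or H).

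Of 21 other PIP3-binding proteins tested, 1 was higher and 5 lower. Cyth1 and Cyth4 encode exchange factors for ARF GTPases and moved in opposite directions, with log2 fold changes of -0.98 ± 0.21 and 1.03 ± 0.24 (edgeR adjusted p = 0.00281 and 0.00535). Dapp1, for the adaptor BAM32, had a mean of 142 CPM in P7 against 238 CPM in adult libraries and fell by 0.74 ± 0.17 log2 units (edgeR adjusted p = 0.00521).

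Of 13 genes of AKT activation and shut-off, 1 was higher and 4 were lower. Among the latter was Mapkap1, which encodes SIN1, a subunit of the AKT-activating complex mTORC2. Mapkap1 had a mean of 15.3 ± 3.87 CPM in P7 libraries against 44.4 ± 10.5 CPM in adult libraries (SD, n = 5 per age) and fell by 1.53 ± 0.22 log2 units (edgeR adjusted p = 0.000191). Ppp2ca, for the catalytic subunit of the phosphatase PP2A, fell by 0.72 ± 0.17 log2 units (edgeR adjusted p = 0.00560).

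Of 16 AKT substrates, 1 was called. It was Ccdc88a, for the actin-binding protein girdin, which had a mean of 22.7 ± 7.68 CPM in P7 libraries against 78.7 ± 38.5 CPM in adult libraries (SD, n = 5 per age) and fell by 1.79 ± 0.32 log2 units (edgeR adjusted p = 0.00110). The call was kept in all 22 alternatives, with adjusted p-values up to 0.0366. Class II and III PI3-kinases (4 tested) and adaptors and receptors (8 tested) had 0 calls. Their most abundant tested genes were Becn1, a partner of the class III kinase, with a log2 fold change of -0.17 ± 0.14 (edgeR adjusted p = 0.416), and the ubiquitin ligase gene Cbl with 0.43 ± 0.19 (edgeR adjusted p = 0.102).

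**Figure D3:**
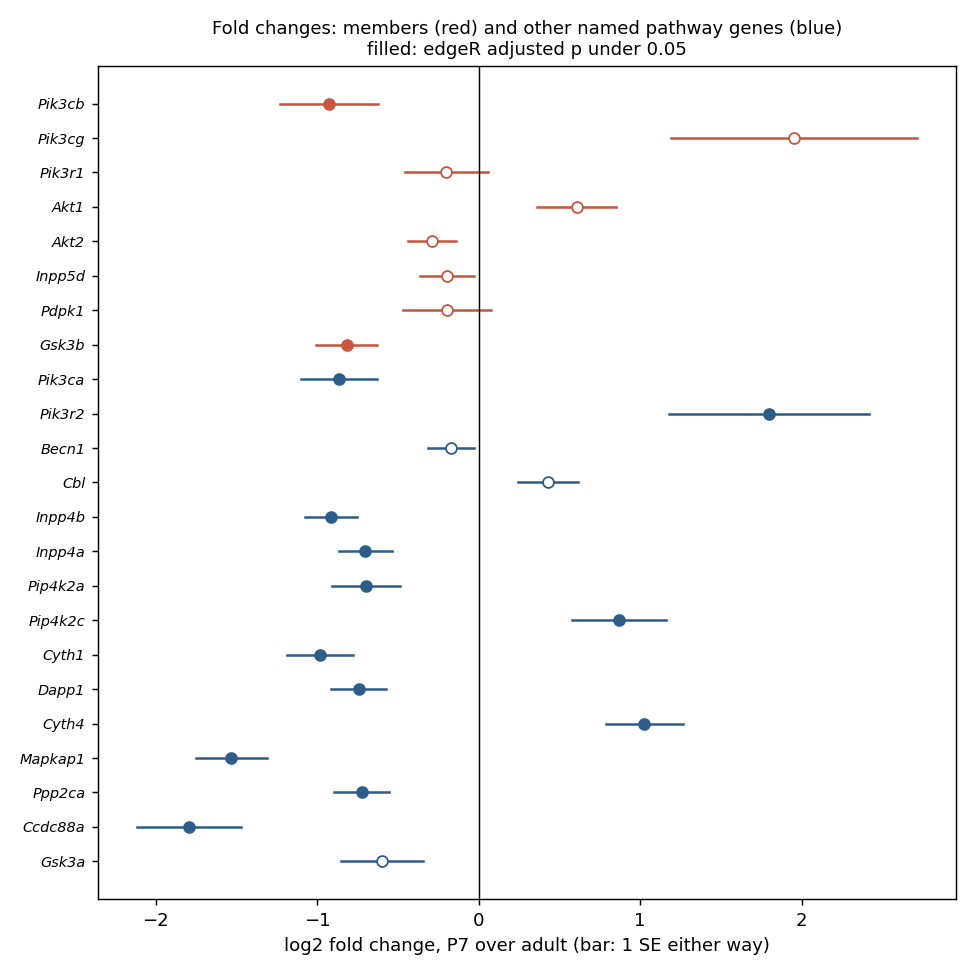
Log2 fold change (P7 over adult) of the 8 tested members and the other pathway genes named in the text, with bars of ±1 SE, members in red and other genes in blue, filled where edgeR's adjusted p was under 0.05. Most called genes lie to the left of 0, with Ccdc88a at -1.79 and Mapkap1 at -1.53, and Pik3cg at 1.95 has the widest bar among the members.

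The libraries held 19431863 to 25029931 counts at P7 and 19541997 to 23291269 in adults. Of 18 platelet markers, 17 were tested, and 6 were called higher and 4 lower at P7, beside 13.8% and 13.9% of all genes. The 18 summed to 74250 to 96150 CPM at P7 and 74200 to 103600 CPM in adults. Single markers shifted in both directions within these sums. Mean levels were 7233 at P7 against 21410 CPM in adults for Ppbp, and 27110 against 18530 CPM for Itga2b. Markers of red cell precursors summed to 984 to 2557 CPM at P7 and 583 to 1781 CPM in adults, with 5 of 15 tested called higher and Hba-a1 making up 87% of the sum. Adult library H, the lowest adult library for Pik3cb, Pik3cg, Akt1 and Gsk3b, had the highest erythroid sum among adults (1781 CPM). It was not the lowest for Pik3r1, Akt2, Inpp5d or Pdpk1, and only adult library C was higher for Akt2 and Inpp5d. Adult library H also had the lowest TMM factor (0.893). P7 library I had the highest sum at P7 (2557 CPM). It was the lowest P7 library for Pik3cb, Akt1 and Inpp5d but the highest for Gsk3b and Pik3r1. P7 library E had the lowest sum at P7 (984 CPM) and was the lowest P7 library for Pik3cg and Akt2 but the highest for Pdpk1. A link between these levels within an age was not tested.

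Age accounted for 77.3% of the variance of the erythroid marker level and 46.2% of that of the leukocyte level. The leukocyte level was taken over 19 tested markers, and whether their RNA came from leukocytes was not tested. With the erythroid level as a covariate edgeR called 0.939% of all genes and 0 members, and the log2 fold changes were -0.95 ± 0.39 for Gsk3b (adjusted p = 0.267) and -1.42 ± 0.64 for Pik3cb (adjusted p = 0.305). Of the 89 other pathway genes, Ccdc88a alone was called in that fit. With the leukocyte level it called 12.5% of all genes and 0 members, with -0.60 for Gsk3b (adjusted p = 0.129) and -0.94 for Pik3cb (adjusted p = 0.160). Among the other pathway genes named as called, that fit ended the calls of Pik3r2 (1.18, adjusted p = 0.373), Cyth4 (0.89, adjusted p = 0.128) and Pip4k2c (0.60, adjusted p = 0.329) in the higher direction. It also ended those of Pip4k2a (-0.29, adjusted p = 0.561), Dapp1 (-0.55, adjusted p = 0.127) and Ppp2ca (-0.62, adjusted p = 0.0802) in the lower. Both levels varied with age, so these fits cannot fully separate them from age. The part of other cells in the members' differences was not tested.

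**Figure D4:**
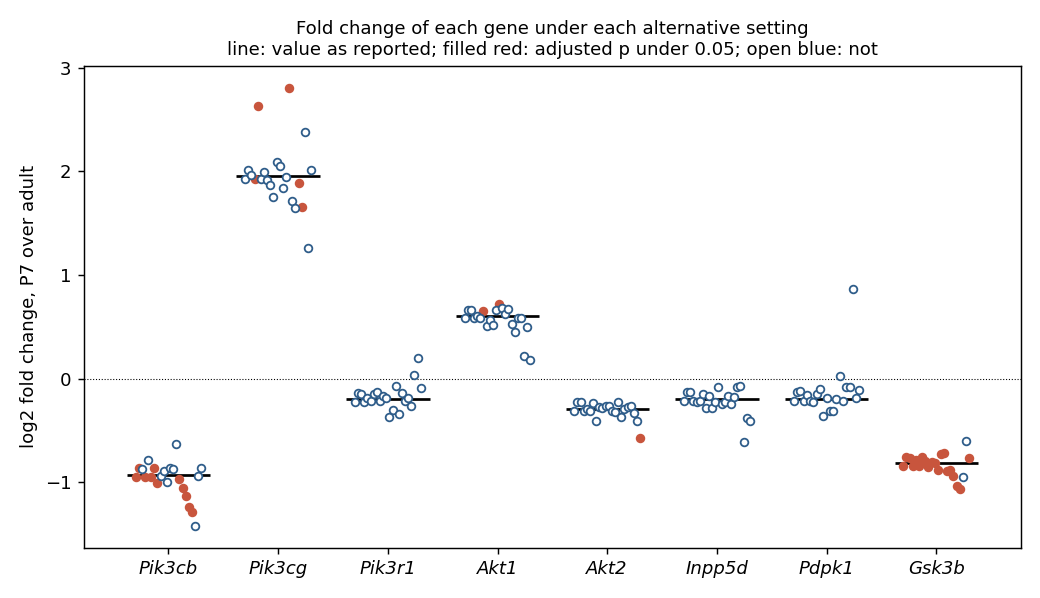
Log2 fold change (P7 over adult) of each tested member under the reported fit (line) and the 22 alternatives (points), filled where the adjusted p was under 0.05. Gsk3b stays between -1.06 and -0.60 and is filled in 20 of 22, Pik3cb is filled in the other 11 of its 22, and Inpp5d in 0.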

How the data were processed

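Platelet RNA from 5 P7 and 5 adult mouse samples was compared. The deposited values are raw counts per gene symbol, whole numbers with a different total in each library. The tools listed per the submitters' processing notes, without their roles, are Salmon 1.5.2, STAR 2.7.9a, fastp 0.23.1, featureCounts and Subread 2.0.1. Neither the genome build nor the strand setting is given in these sources. Per the labels' protocols, cDNA was pre-amplified with SMARTer chemistry for Nextera XT libraries, and no molecular identifiers are mentioned, so that floors from counts reflect counting error alone.

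Genes were kept with filterByExpr (minimum count 10, minimum total 15), normalised by TMM and tested in edgeR 4.0.16 (quasi-likelihood, robust; limma 3.58.1, R 4.3.3) with age as the term and Benjamini-Hochberg adjustment over 8198 genes. Ratios of counts (pseudocount 0.5) were compared with two-sided exact permutation tests (scipy 1.17.1). Exon lengths came from GENCODE M21, promoters from RefSeq. The tests were checked on simulated data.

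The members and gene lists were chosen with earlier results of these data known. Named were all 9 members, per list up to 3 called genes of smallest p, else its most abundant tested gene, genes used in a ratio, and the nearest profile of each called member. Some results under this rule are not reported here. Pik3r6 was added after its counts were seen. Alternatives were other scalings, filters, DESeq2 1.42.0, limma-voom, each library left out, marker covariates, removal of the GC trend and a replicate block.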

Additional observations from a re-analysis of the deposited data

Results flagged for a closer look

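In groups of 5 libraries, 3 values lay far from the other 4 by Dixon's test among 34 groups tested, where chance flags about 1 in 20 groups. Akt2 measured 170.7 CPM in P7 library A, against 116 to 130 CPM in the other 4 P7 libraries. Pik3r5 measured 0.4387 CPM in adult library C, which rests on 9 counts. The log2 ratio of Gsk3b to Gsk3a was 4.967 in P7 library I.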

How the results depend on the processing

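Gsk3b was called lower in 20 of 22 alternatives, Pik3cb in 11. Of the members, 1 was called higher with DESeq2, limma-voom, the filter at 10 CPM, the replicate block and its 6 libraries without the block (chosen after seeing the data), and 0 to 1 when 1 library was left out. Members called lower numbered 1 with library size only and with limma-voom, 0 with the erythroid or leukocyte covariate, and 1 to 2 when 1 library was left out. Other pathway genes called higher numbered 2 with the GC trend removed, 0 with the erythroid and 0 with the leukocyte covariate, and 2 to 6 when 1 library was left out. Those called lower numbered 1 with the erythroid and 10 with the leukocyte covariate. Over all genes, 77 and 1028 were called with these covariates, against 2272.

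Letters A, B and C occur at both ages. Deviations of libraries with the same letter correlated at -0.04, 0.06 and 0.01, and the main fit had no block. Whether same-letter libraries were collected or prepared together is not stated, and these correlations cannot exclude it. With the replicate block 1416 genes were called, with 1 member higher (Pik3cg, log2 fold change 1.89, edgeR adjusted p = 0.00895) and 2 pathway genes higher and 8 lower. The mean same-letter difference (P7 minus adult) in the log2 ratio of Pik3cb to Pik3ca was -0.033.

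When 1 library was left out, the difference in the log2 ratio was -4.02 to -3.01 for Pik3cb to Pik3cg, -1.02 to -0.71 for Akt2 to Akt1 and -0.11 to 0.21 for Pik3cb to Pik3ca. The calls of Pik3cb to Pik3cg and Akt2 to Akt1 were each lost in 9 of 10 cases. The smallest p the exact test can give is the same with 9 libraries as with all 10. Neither difference changed sign. With a pseudocount of 5, Pik3r5 to Pik3cg differed by -2.54 (exact permutation p adjusted 0.0423), against -2.40 (adjusted 0.190) as reported and no call in the other 10 settings. Values that changed sign were those of Pik3r1 (0.039 with the erythroid and 0.20 with the leukocyte covariate), Pdpk1 (0.87 with the erythroid covariate, -0.36 to 0.022 when 1 library was left out) and Becn1 (0.084 with the erythroid covariate). None of these was called, and the cause was not tested. Pik3r5, Pik3r6 and Pik3r3 did not pass the filter, and were tested with no filter (edgeR adjusted p = 0.909, 0.0413 and 0.852).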
